A study of Homo sapiens with 12 samples.

Results

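The mRNA levels of 10 regulators of mitochondrial biogenesis were examined in A375 melanoma cells exposed to MAPK inhibitors or deprived of glutamine (Gln). The genes were chosen by name, as PPARGC1A and the factors with which it acts. They were the coactivators PPARGC1A, PPARGC1B and PPRC1 and the transcription factors NRF1, GABPA and ESRRA. TFAM, TFB1M, TFB2M and POLRMT, genes of mitochondrial transcription and RNA processing, completed the set. Each of the 10 symbols was found on 1 of the 44659 rows of the count table, none had a further copy there, and all 10 had a mean normalised count above the limit of 10 in both experiments.

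Mitochondria carry a small genome of their own, but most of their proteins, including those that copy and read that genome, are encoded in the nucleus. PGC-1alpha, the product of PPARGC1A, does not bind DNA itself and is recruited by transcription factors such as NRF1, GABP and ERRalpha to genes of the respiratory chain and of mtDNA maintenance. Among these are the genes for TFAM, which packages and activates mtDNA, and for TFB2M and POLRMT, which transcribe it. TFB1M, the relative of TFB2M, methylates the small mitochondrial ribosomal RNA. In melanoma, PPARGC1A is known as a target of the melanocyte factor MITF and as a gene that marks tumours relying on oxidative phosphorylation.

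A375 is an established line of BRAF-mutated human skin melanoma cells, and the libraries of both experiments come from this line alone. In the MAPKi experiment, the cells received 500 nM vemurafenib, a BRAF inhibitor, together with 500 nM cobimetinib, a MEK inhibitor, or the solvent DMSO, for 24 h. In the Gln experiment, they were kept for 24 h in a medium without glutamine (Gln-depleted) or in control medium (CTRL medium), the routine culture medium holding 2 mM glutamine. Each of the 4 groups had 3 libraries, 12 in all, and the experiments belonged to different sequencing batches. The labels place replicate 1 of the Gln-depleted and CTRL medium groups in experimental batch 1 and replicates 2 and 3 in experimental batch 2. Nothing in the labels says that replicates of the MAPKi experiment were separate cultures, so that p-values there measure the spread between these libraries, which may be technical.

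The 12 libraries held 31056296 to 40071368 counted reads each. After MAPKi, 4 of 4 genes known to follow ERK signalling (DUSP6, SPRY2, ETV5, PHLDA1) fell, and DUSP6 went from a mean normalised count of 4507 ± 164 (SD, n = 3) in DMSO to 5.99 ± 3.54. Melanocyte markers (8 genes) were detected in every group, MLANA with a mean of only 3.33 counts after Gln depletion. The summed level of the markers was 1546 to 1612 CPM (counts scaled to the same library total) in DMSO and 9041 to 10976 with MAPKi. It was 1172 to 1475 in CTRL medium and 698 to 776 after Gln depletion. DCT, an enzyme of melanin synthesis, carried the MAPKi sum, with a mean count of 6939 in DMSO and 275768 with MAPKi. The markers did not move as 1 group: S100B fell with MAPKi (log2 fold change -2.13, adjusted p 2.19e-10 in edgeR) and S100A1 did not pass (0.12, adjusted p 0.138). Markers of immune, epithelial, endothelial and muscle cells (8 genes) added up to at most 0.678 CPM in any library, and CD3E and KRT5 had no read in any group. The part of the melanocyte marker shift in the results on the regulators was not tested. In RNA from whole cultures, fewer cells with an mRNA and less of that mRNA per cell cannot be told apart.

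Promoter sequences are shown first, because some of the regulators hold letter matches to the binding motifs of others in front of their own genes. RefSeq (GRCh38.p14) entries matched 9 of the 10 genes, all but NRF1, with 2 entries for PPARGC1A, and the 250 bases before each RefSeq gene start were searched on both strands. For PPARGC1B, PPRC1 and the second entry of PPARGC1A, that start lies inside the span that RefSeq gives for the gene (positions given with each gene). The bases before the outermost start of PPARGC1B and PPRC1 were thus not searched. The motif of the factor NRF1, GCGCANGCG, was present in 5 of the 9 genes (ESRRA, TFAM, TFB1M, TFB2M and POLRMT), against 6.56% of 35116 promoters of the same length. The following stretches of 41 bases hold it, written 5′ to 3′ on the strand of each gene, with the motif letters in capitals:
ESRRA (chr11:64305415-64305455, plus strand): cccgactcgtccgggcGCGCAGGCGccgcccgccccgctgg
TFAM (chr10:58385332-58385372, plus strand): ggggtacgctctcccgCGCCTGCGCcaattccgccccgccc
TFB1M (chr6:155314591-155314631, minus strand): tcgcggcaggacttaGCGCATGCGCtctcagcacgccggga
TFB2M (chr1:246566262-246566302, minus strand): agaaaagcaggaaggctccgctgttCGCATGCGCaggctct
POLRMT (chr19:633538-633578, minus strand): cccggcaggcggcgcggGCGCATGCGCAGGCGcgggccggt
In TFB1M and POLRMT the motif overlaps its own reverse complement, and POLRMT holds 3 overlapping matches. The motif lies between bases -93 and -85 from the gene start in ESRRA, and between bases -16 and -8 in TFB2M. The ETS motif bound by GABP, CCGGAAG, was present before GABPA, TFB1M and POLRMT (8.52% of all promoters). These are letter matches and not measured binding.

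PPARGC1A holds none of these NRF1 or ETS letters in either window, which says nothing about other start sites. The window of the second PPARGC1A entry (chr4:23881102-23881351) held no match to any motif searched here. The entry before its outermost annotated start is shown because it carries the E-box CACGTG (in capitals, bases -123 to -118), a motif that MITF and related factors can bind and that 6.34% of all promoters hold:
PPARGC1A (chr4:24472906-24473155, minus strand): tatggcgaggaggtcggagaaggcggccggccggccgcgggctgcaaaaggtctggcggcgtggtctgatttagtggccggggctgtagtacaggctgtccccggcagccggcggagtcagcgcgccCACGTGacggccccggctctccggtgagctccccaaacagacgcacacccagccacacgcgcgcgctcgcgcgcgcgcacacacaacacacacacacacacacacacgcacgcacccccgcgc
The motifs of ERR (TCAAGGTCA, 0.319% of all promoters), CREB (TGACGTCA, 1.65%) and the M-box (TCATGTG, 2.52%) had no match in these windows of the 9 genes, which says nothing about binding elsewhere.

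MAPKi treatment changed the level of all 10 regulators, in opposite directions within the same family. PPARGC1A and ESRRA, which encodes the main partner of PGC-1alpha, rose 3.19-fold and 3.04-fold, while PPARGC1B and TFB1M fell 4.49-fold and 3.98-fold. In edgeR's quasi-likelihood test against no change (Benjamini-Hochberg adjusted p of at most 0.05 over 12593 protein-coding genes), 3 regulators were higher and 7 lower. This test called 39.1% of all tested genes higher and 38.9% lower. Against a threshold of 1.5-fold, 2 regulators were upregulated (PPARGC1A and ESRRA) and 4 downregulated (PPARGC1B, TFB1M, PPRC1 and NRF1), where 17.1% and 18.3% of the tested genes were. Levels in MAPKi and DMSO libraries did not overlap for any of the 10, as for 80.9% of the tested genes. The median log2 fold change was -0.58 over the regulators and 0.0073 over all tested genes.

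**Figure D1:**
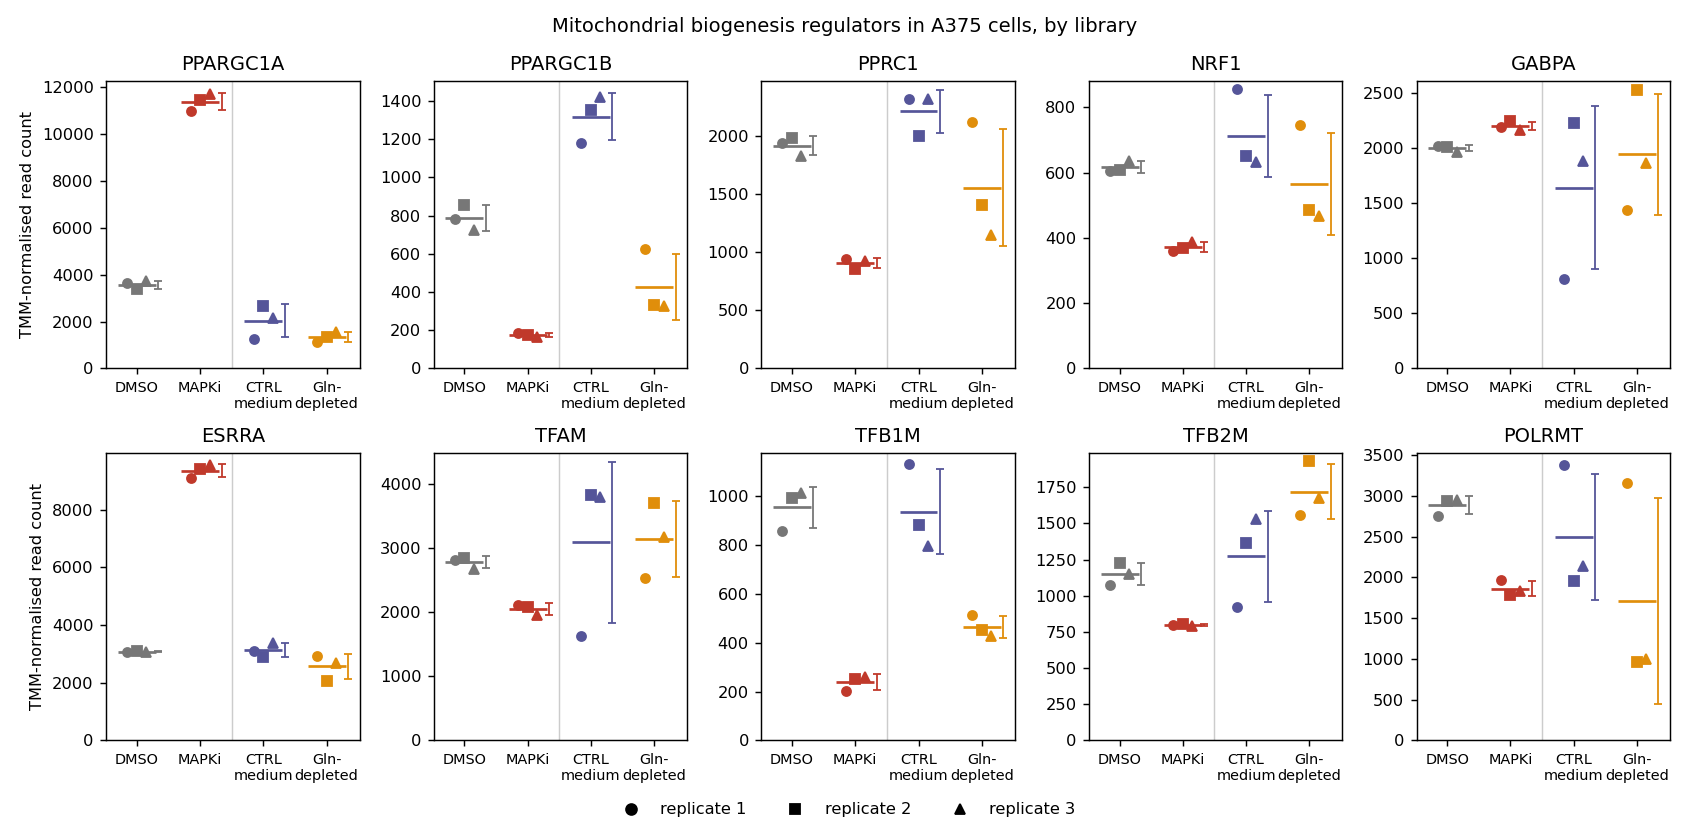
TMM-normalised read count (vertical axes, each from 0) of the 10 regulators in the 12 libraries, grouped as DMSO, MAPKi, CTRL medium and Gln-depleted, with a symbol for each replicate number, a line at the mean and a bar of ± 1 SD (n = 3). PPARGC1A and ESRRA stand out with MAPKi, and CTRL medium replicate 1 and Gln-depleted replicate 1 lie apart from the other libraries of their groups for several genes, such as POLRMT.

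Among the coactivators, PPARGC1A (chr4:23792021-24472905, GRCh38, minus strand) had normalised counts of 3636, 3374 and 3712 in DMSO replicates 1 to 3 and of 11007, 11455 and 11699 with MAPKi. The 3 MAPKi libraries lay far above the 3 DMSO libraries, and the log2 fold change was 1.67 (SE 0.051, adjusted p 5.88e-10). PPARGC1B (chr5:149730310-149857959, plus strand), whose product PGC-1beta shares targets with PGC-1alpha, went the other way. Its normalised counts were 782, 857 and 724 in DMSO and 186, 177 and 164 with MAPKi, a 4.49-fold decrease (log2 fold change -2.17, SE 0.089, adjusted p 4.24e-09). PPRC1 (chr10:102119889-102150333, plus strand), which encodes the growth-responsive member of the family, also fell. Its counts were 1943, 1988 and 1832 in DMSO and 943, 861 and 923 with MAPKi (log2 fold change -1.08, SE 0.056, adjusted p 2.38e-08).

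Counts per kilobase of merged exons allow the coactivators to be set side by side. In DMSO, PPARGC1A made up 46.9%, 44.2% and 48.9% of the summed level of the 3 coactivators, and PPRC1 made up 44.6%, 46.4% and 43.0%. With MAPKi, PPARGC1A made up 85.7%, 87.2% and 86.8%. The mean share of PPARGC1A was thus 39.9 percentage points higher, without overlap between the groups (two-sided exact permutation test, p = 0.10, the smallest that 3 against 3 libraries can give). The share of PPARGC1B went from 8.67% ± 0.72 to 1.13% ± 0.096 and that of PPRC1 from 44.7% ± 1.68 to 12.3% ± 0.71 (SD, n = 3). These shares depend on the length used. With that of the canonical transcript, PPARGC1A and PPRC1 made up 56.6% and 35.9% in DMSO, and without a length 56.9% and 30.6%, PPARGC1A being 34.0 and 34.4 percentage points higher with MAPKi. The summed level of the 3 was 705 ± 8.02 normalised counts per kilobase in DMSO and 1210 ± 29.4 with MAPKi.

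**Figure D2:**
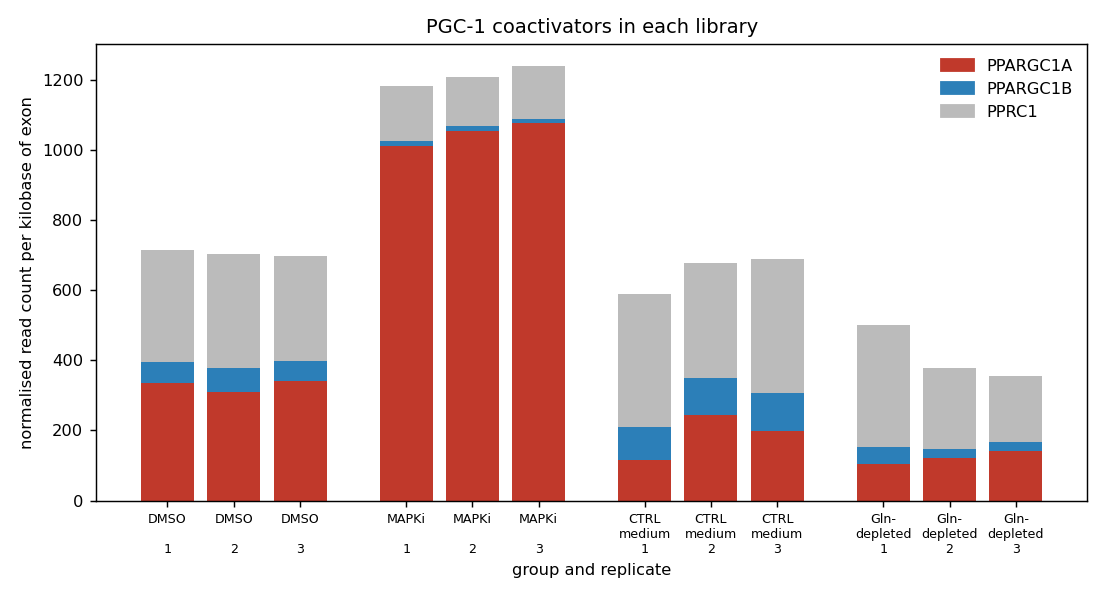
Normalised read count per kilobase of merged exons (vertical axis, from 0) of PPARGC1A, PPARGC1B and PPRC1, stacked for each of the 12 libraries. PPARGC1A fills 85.7% to 87.2% of the bar in the MAPKi libraries and 44.2% to 48.9% in the DMSO libraries.

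Of the transcription factors, ESRRA (chr11:64305524-64316743, plus strand), which encodes the orphan nuclear receptor ERRalpha, had normalised counts of 3055, 3108 and 3080 in DMSO and of 9094, 9419 and 9540 with MAPKi. The gap between the groups was many times the spread within them (log2 fold change 1.60, SE 0.043, adjusted p 2.58e-10). NRF1 (chr7:129611720-129757076, plus strand), which encodes nuclear respiratory factor 1, fell. It had 606, 607 and 637 counts in DMSO against 359, 370 and 388 with MAPKi (log2 fold change -0.73, SE 0.068, adjusted p 2.72e-06). NRF1 was also past the 1.5-fold threshold (adjusted p 0.0255), but not in DESeq2, in a fit of all 12 libraries, or without MAPKi replicate 2, DMSO replicate 1 or DMSO replicate 3, where 3 regulators and not 4 were downregulated. With GC correction or without MAPKi replicate 1, POLRMT was past the threshold and NRF1 was not.

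GABPA (chr21:25734972-25772460, plus strand), which encodes the DNA-binding subunit of GABP, had the smallest difference of the 10. Its counts were 2024, 2017 and 1968 in DMSO and 2194, 2245 and 2170 with MAPKi, a 1.10-fold increase (log2 fold change 0.14, SE 0.041, adjusted p 0.0103). All 3 MAPKi libraries were above all 3 DMSO libraries, but the adjusted p was 0.0501 without MAPKi replicate 2. The genes for its partner subunits moved apart: GABPB2 rose (log2 fold change 0.98, adjusted p 1.25e-06) and GABPB1 fell (-0.58, adjusted p 7.48e-05).

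The genes of mitochondrial transcription and RNA processing (TFAM, TFB1M, TFB2M and POLRMT) were all lower with MAPKi. TFB1M (chr6:155229871-155314484, minus strand), which encodes a methyltransferase of the small mitochondrial ribosomal RNA, fell most. Its normalised counts were 856, 990 and 1013 in DMSO and 203, 253 and 261 with MAPKi, a 3.98-fold decrease (log2 fold change -1.99, SE 0.11, adjusted p 3.83e-08). TFB2M (chr1:246540561-246566261, minus strand), its relative that opens mtDNA promoters for POLRMT, had 1073, 1228 and 1153 counts in DMSO and 796, 808 and 794 with MAPKi (log2 fold change -0.53, SE 0.060, adjusted p 1.34e-05). These 2 related genes thus differed in the size of their decrease, TFB1M being past the 1.5-fold threshold and TFB2M not (adjusted p 2.60e-07 and 1.0), and the difference between the genes was not tested.

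TFAM (chr10:58385410-58399220, plus strand) had 2805, 2848 and 2675 normalised counts in DMSO and 2112, 2080 and 1949 with MAPKi (log2 fold change -0.44, SE 0.048, adjusted p 8.52e-06). POLRMT (chr19:617221-633537, minus strand), which encodes the mitochondrial RNA polymerase, had 2754, 2942 and 2948 counts in DMSO and 1965, 1781 and 1836 with MAPKi (log2 fold change -0.63, SE 0.051, adjusted p 7.97e-07). Neither was past the 1.5-fold threshold, although every MAPKi library was below every DMSO library. In the fit of all 12 libraries, whose spread includes the more variable Gln experiment, GABPA, TFAM and POLRMT were no longer called (adjusted p 0.703, 0.189 and 0.208), leaving 2 regulators higher and 5 lower.

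Parts of 3 of these genes are shared with a neighbour on the opposite strand, and whether reads were counted by strand is not stated. TFB1M shares 1264 of its exon bases with TIAM2, ESRRA 284 with TRMT112 and GABPA 692 with ATP5PF. With MAPKi, TIAM2 fell (log2 fold change -0.46, adjusted p 3.53e-04), TRMT112 fell (-0.86, adjusted p 6.20e-08) and ATP5PF rose (0.77, adjusted p 5.89e-07). The part of any of these neighbours in the counts of the regulators was not tested.

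**Figure D3:**
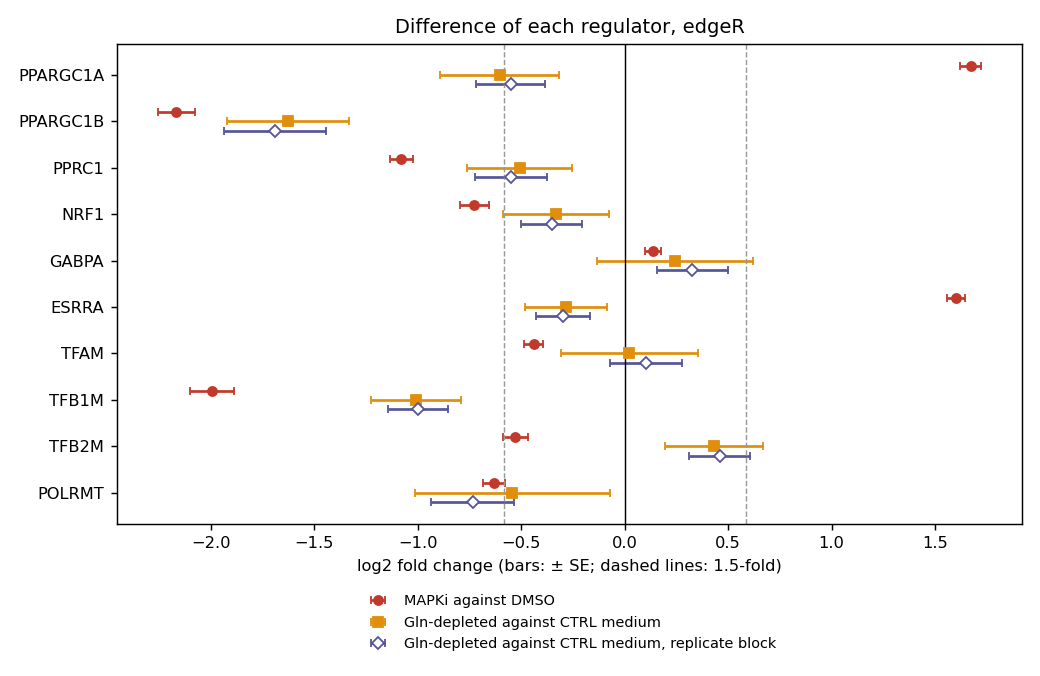
Log2 fold change (horizontal axis, bars of ± SE) of each regulator with MAPKi and with Gln depletion, the latter with and without the replicate number as a term, from edgeR with dashed lines at 1.5-fold. MAPKi values range from -2.17 (PPARGC1B) to 1.67 (PPARGC1A), and the Gln depletion values are mostly smaller with wider errors.

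Gln depletion lowered PPARGC1B and TFB1M, the same genes that had the lowest fold changes with MAPKi, and did not raise PPARGC1A or ESRRA. In the fit without pairing, 0 regulators were higher and 2 lower by edgeR at an adjusted p of at most 0.05. The test called 9.68% of 12512 genes higher and 7.97% lower. Past 1.5-fold, 1 regulator (PPARGC1B) was downregulated and 0 were upregulated, against 1.91% and 3.49% of the tested genes. The median log2 fold change was -0.42 over the regulators and 0.016 over all tested genes. Groups did not overlap for 3 regulators (PPARGC1B, TFB1M and TFB2M), as for 39.7% of the tested genes.

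The replicate numbers pair the libraries of this experiment, and a fit with the number as a term (replicate block) called 25.9% of the tested genes higher and 23.2% lower. It called 1 regulator higher (TFB2M) and 5 lower (PPARGC1A, PPARGC1B, PPRC1, TFB1M and POLRMT). NRF1, GABPA, ESRRA and TFAM did not pass in either fit. Past 1.5-fold, the fit with the block called 2 regulators downregulated, PPARGC1B (adjusted p 0.00569) and TFB1M (adjusted p 0.0185). It called 959 of all 12512 tested genes downregulated past this threshold.

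PPARGC1B had normalised counts of 1179, 1353 and 1418 in CTRL medium replicates 1 to 3 and of 624, 330 and 326 after Gln depletion. All 3 depleted libraries were below all 3 controls, and the log2 fold change was -1.63 (SE 0.29, adjusted p 0.00984), or -1.69 (SE 0.25, adjusted p 0.00107) with the replicate block. TFB1M had counts of 1129, 883 and 795 in CTRL medium and of 514, 454 and 427 after depletion, again without overlap. Its log2 fold change was -1.01 (SE 0.22, adjusted p 0.0184), and the adjusted p was 0.0587 without CTRL medium replicate 2, 0.0773 without Gln-depleted replicate 2 and 0.0592 without Gln-depleted replicate 3. With the block it was 7.58e-04. For PPARGC1B the call past 1.5-fold was lost, leaving 0, without CTRL medium replicate 2 or 3 or without Gln-depleted replicate 2 or 3.

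PPARGC1A had counts of 1272, 2658 and 2151 in CTRL medium and of 1136, 1329 and 1538 after Gln depletion. The groups overlapped, because CTRL medium replicate 1 was below 2 of the depleted libraries. Its log2 fold change was -0.60 (SE 0.29, adjusted p 0.173) without and -0.55 (SE 0.17, adjusted p 0.0246) with the replicate block. Without the block, it passed when CTRL medium replicate 1 was left out (-0.85, adjusted p 0.0376) and was at -0.36 (adjusted p 0.456) without CTRL medium replicate 2. Within the pairs of replicates 1 to 3, the log2 ratio of PPARGC1A was -0.16, -0.999 and -0.48.

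PPRC1 had counts of 2319, 2000 and 2325 in CTRL medium and of 2122, 1406 and 1148 after depletion. Only Gln-depleted replicate 1 reached into the range of the controls (log2 fold change -0.51, adjusted p 0.194, and -0.55, adjusted p 0.0281 with the block). PPRC1 passed without Gln-depleted replicate 1 (adjusted p 0.0351). The summed coactivators were at 652 ± 54.9 normalised counts per kilobase in CTRL medium and 411 ± 78.4 after depletion (SD, n = 3). PPARGC1A made up 28.2% ± 8.12 of this sum in CTRL medium and 31.0% ± 9.57 after depletion (exact permutation test, p = 0.70), and PPARGC1B 15.7% ± 0.26 and 7.85% ± 1.58 (p = 0.10, the smallest possible).

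ESRRA had counts of 3084, 2905 and 3390 in CTRL medium and of 2935, 2074 and 2696 after depletion (log2 fold change -0.28, SE 0.20, adjusted p 0.347). NRF1 had counts of 855, 650 and 631 against 745, 484 and 466 (-0.33, SE 0.26, adjusted p 0.390). For both, the groups overlapped and all 3 pairs had a lower value after depletion. GABPA had counts of 809, 2234 and 1882 in CTRL medium and of 1437, 2526 and 1871 after depletion (0.24, SE 0.38, adjusted p 0.684), and its groups overlapped widely.

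TFB2M had counts of 922, 1368 and 1531 in CTRL medium and of 1557, 1930 and 1674 after depletion. The depleted libraries were all higher, the log2 fold change being 0.43 (adjusted p 0.229) and 0.46 with the block (adjusted p 0.0305). The call was lost when GC correction was added to the block (0.32, adjusted p 0.0599), and without the block the value was 0.25 when CTRL medium replicate 1 was left out. POLRMT had counts of 3377, 1956 and 2140 in CTRL medium and of 3163, 963 and 1002 after depletion, replicate 1 being highest in both groups. Its log2 fold change was -0.54 (SE 0.47, adjusted p 0.447) without the block and -0.73 (SE 0.20, adjusted p 0.0180) with it. Without the block its size rested on single libraries: it was -1.34 (adjusted p 0.0170) without Gln-depleted replicate 1, but -0.26 without Gln-depleted replicate 2 or CTRL medium replicate 1 and -0.31 without Gln-depleted replicate 3.

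TFAM had counts of 1632, 3829 and 3789 in CTRL medium and of 2524, 3703 and 3174 after depletion (log2 fold change 0.023, SE 0.33, adjusted p 0.967). It was higher after depletion in the pair of experimental batch 1 (log2 ratio 0.63) and lower in both pairs of batch 2 (-0.048 and -0.26). With 1 library per group in batch 1, assumed to vary like those of batch 2, the difference of the effect between the batches was -0.78 for TFAM (unadjusted p 0.0209, adjusted p 0.743 in edgeR). For POLRMT this difference was -0.97 (adjusted p 0.742) and for PPARGC1B -1.16 (adjusted p 0.742), and it passed for 0 of the 12512 genes.

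**Figure D4:**
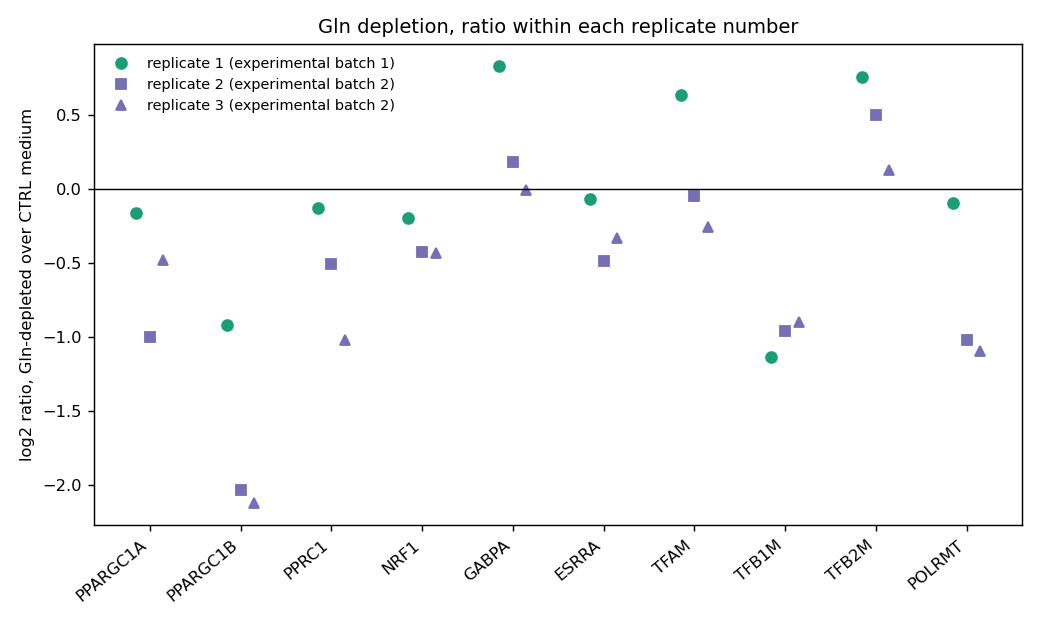
Log2 ratio of the Gln-depleted over the CTRL medium library of the same replicate number (vertical axis) for each regulator, with colours for experimental batches 1 and 2. PPARGC1B and TFB1M are below 0 in all 3 pairs, TFB2M is above 0 in all 3, and TFAM changes sign between the batches (0.63 against -0.048 and -0.26).

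Libraries of the Gln experiment also differed in their content of GC-rich transcripts. Between the quintiles of genes richest and poorest in GC, the difference of the median deviation from the mean of the 6 libraries was 0.97 on the log2 scale in CTRL medium replicate 1, 0.36 in Gln-depleted replicate 1 and between -0.71 and -0.0081 in the other 4 libraries. In the MAPKi experiment this value was smaller, but its sign followed the treatment. It was 0.080 to 0.11 in the MAPKi libraries and -0.12 to -0.075 in the DMSO libraries. With GC correction, the log2 fold change with MAPKi was 1.39 in place of 1.60 for ESRRA and -0.87 in place of -0.63 for POLRMT. Every regulator kept its direction and its call against no change there. CTRL medium replicate 1 was the lowest library of its group for TFAM, GABPA, PPARGC1A and TFB2M, whose transcripts hold 36.0%, 36.7%, 40.5% and 41.2% GC, and the highest for POLRMT with 66.1%. It was also the highest for TFB1M (42.5%) and NRF1 (49.5%) and the lowest for PPARGC1B (50.5%), and it lay between the other 2 libraries for PPRC1 (56.7%) and ESRRA (63.8%). After correction for the GC trend, without the replicate block, PPARGC1A had a log2 fold change with Gln depletion of -0.71 (adjusted p 0.0176). TFAM was at -0.24 (adjusted p 0.237) and POLRMT at -0.49 (adjusted p 0.309). With both the correction and the block, the values were -0.71 (adjusted p 0.00359) for PPARGC1A, -0.24 (adjusted p 0.147) for TFAM and -0.61 (adjusted p 0.0335) for POLRMT, and the 5 regulators called lower with the block were called lower here too.

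The responses to MAPKi and to Gln depletion were compared as the difference of the 2 log2 fold changes over the 12 libraries. It was positive and passed the test for PPARGC1A (2.32, SE 0.30, adjusted p 1.11e-04) and ESRRA (1.93, SE 0.19, adjusted p 1.35e-05). It was negative for TFB1M (-0.93, SE 0.24, adjusted p 0.00797), which fell in both experiments, and for TFB2M (-0.91, SE 0.23, adjusted p 0.00812), which fell with MAPKi and was at 0.43 with Gln depletion. Among 12627 genes, 19.4% were higher and 20.9% lower in this contrast. PPARGC1B did not pass (-0.49, SE 0.31, adjusted p 0.235), nor did PPRC1, NRF1, GABPA, TFAM or POLRMT. PPRC1 (-0.52, adjusted p 0.137) did pass with GC correction (-0.68, adjusted p 0.0103), with GC correction and the replicate block (-0.67, adjusted p 0.0202) and without Gln-depleted replicate 3 (-0.71, adjusted p 0.0260). As the experiments were sequenced in different batches, the contrast holds only if a batch acted alike on a treatment and its control.

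The level of the 10 genes per kilobase of exon, averaged over each group, was ordered as follows. ESRRA was highest in DMSO (994 ± 8.44 normalised counts per kilobase, SD, n = 3), followed by TFB2M (645 ± 43.4), POLRMT, TFAM, GABPA, PPARGC1A (329 ± 16.3), PPRC1 (315 ± 13.2), TFB1M, NRF1 and PPARGC1B (61.1 ± 5.17). Of these neighbours, only PPARGC1A and PPRC1 overlapped between libraries. With MAPKi, ESRRA (3016 ± 74.4) and PPARGC1A (1048 ± 32.3) came first, TFAM overlapped with GABPA and GABPA with POLRMT, and PPARGC1B was last at 13.6 ± 0.83. In CTRL medium, ESRRA (1008 ± 79.1) was again highest and PPARGC1B (102 ± 9.58) lowest, and most neighbours between TFB2M and NRF1 overlapped. After Gln depletion, TFB2M (964 ± 107) and ESRRA (828 ± 143) were highest and overlapped. The order depends on the length used: with that of the canonical transcript in place of merged exons, POLRMT stood above TFB2M in DMSO.

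The regulators' known surroundings were described by 3 lists of genes. Of 29 upstream regulators and partners of PGC-1alpha, 19 were higher and 8 lower with MAPKi (7 up- and 1 downregulated past 1.5-fold), with a median log2 fold change of 0.25. Of all tested genes, 39.1% rose and 38.9% fell, 17.1% and 18.3% past 1.5-fold. When all 12 libraries were fitted together, 10 members of the list were called higher and 2 lower (3096 and 3163 of 12627 genes). Among genes with a mean count of at least 50, the rises were led by RXRA (1.30, adjusted p 1.67e-09), the common partner of nuclear receptors, GABPB2 and PRKAB1 (0.96, adjusted p 2.16e-06), a subunit of the energy sensor AMPK. The falls were led by KAT2A (-0.96, adjusted p 3.21e-07), an acetyltransferase known to inactivate PGC-1alpha, GABPB1 and HCFC1 (-0.37, adjusted p 1.43e-05), a host cell factor bound by PGC-1 coactivators and GABP. On fewer reads, ESRRB and PERM1, singled out after their values were seen, rose more than RXRA (both 2.25, adjusted p 1.11e-04 and 4.26e-05).

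MITF, the melanocyte factor upstream of PPARGC1A, had mean normalised counts of 13723 ± 127 in DMSO and 23630 ± 898 with MAPKi (log2 fold change 0.78, adjusted p 7.22e-08). It had 10707 ± 3272 in CTRL medium and 2133 ± 464 after Gln depletion (-2.33, adjusted p 0.00290). PPARGC1A and MITF were thus both higher with MAPKi, while with Gln depletion MITF fell 5.02-fold and PPARGC1A passed in the paired but not in the unpaired fit. With Gln depletion, 26 genes of this list were tested, of which 6 were higher and 1 (MITF) lower, or 12 and 1 with the replicate block (9.68% and 7.97% of all tested genes, or 25.9% and 23.2%). PRKAB2, another AMPK subunit, rose most (3.44, SE 0.24, adjusted p 5.07e-04), followed by GABPB2 (1.43, adjusted p 0.00588) and PRKAB1 (1.25, adjusted p 0.0158).

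Of 38 other genes of mtDNA transcription, replication and RNA processing, 7 were higher and 26 lower with MAPKi (1 up- and 9 downregulated past 1.5-fold). Their median log2 fold change was -0.38. Shares over all tested genes were 39.1% and 38.9%, or 17.1% and 18.3% past 1.5-fold. In the fit of all 12 libraries, 1 gene of the list was higher and 14 were lower (3096 and 3163 of 12627 genes). DNA2 (-1.64, adjusted p 7.01e-08), a nuclease and helicase of DNA replication, DGUOK (-1.22, adjusted p 2.62e-09), a kinase that supplies deoxynucleotides for mtDNA, and ATAD3A (-0.99, adjusted p 6.11e-09), a membrane ATPase linked to mitochondrial nucleoids, fell most. TK2 (0.77, adjusted p 1.04e-06) and RRM2B (0.59, adjusted p 2.20e-07), which also supply deoxynucleotides outside S phase, and the termination factor gene MTERF1 (0.40, adjusted p 5.28e-04) rose most. For 3 genes of this list (SSBP1, TOP3A and MRM1) the table holds a further copy that was kept apart, so that their counts are uncertain.

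With Gln depletion, 2 genes of this list were higher and 2 lower (9.68% and 7.97% of all tested genes), and the median was -0.036. With the replicate block, 5 were higher and 8 lower (25.9% and 23.2% of all tested genes). Without the block, the higher ones were TK2 (1.01, adjusted p 0.0227) and LONP1 (0.87, adjusted p 0.0326), the protease that degrades TFAM. The lower ones were ATAD3A (-1.13, adjusted p 0.0110) and MRPL12 (-0.96, adjusted p 0.0275), a ribosomal protein that binds POLRMT.

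Among 29 genes known as targets of PGC-1alpha, NRF1 or ERRalpha, 7, including COX5B, did not pass the filter for testing and 22 did. With MAPKi, 16 were higher and 3 lower (8 up- and 3 downregulated past 1.5-fold), with a median log2 fold change of 0.57. Shares over all tested genes were 39.1% and 38.9%, or 17.1% and 18.3% past 1.5-fold. The fit of all 12 libraries called 13 targets higher and 3 lower (3096 and 3163 of 12627 genes). Among those with a mean count of at least 50, SOD2 (1.48, adjusted p 3.60e-09), the superoxide dismutase of mitochondria, CPT1A (1.40, adjusted p 1.10e-08), the entry enzyme of fatty acid oxidation, and ACADM (1.31, adjusted p 6.06e-10), an acyl-CoA dehydrogenase and a classical ERRalpha target, rose most. PDK4, a kinase that shuts off pyruvate dehydrogenase and is itself an ERRalpha target, fell (-2.19, adjusted p 3.53e-09), as did PRDX3 (-0.69, adjusted p 5.28e-08), a mitochondrial peroxiredoxin. UCP2 and SDHB lay under that count and were singled out after their values were seen. UCP2, an uncoupling protein gene, fell (-2.77, adjusted p 9.92e-05), and SDHB was counted as higher on few reads (45.1 ± 53.3 against 7.74 ± 0.79 normalised counts). SDHB also spread widely after Gln depletion (487 ± 812), so that its counts are uncertain, and the cause was not tested.

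With Gln depletion, 1 of the 22 targets was higher and 2 lower (9.68% and 7.97% of all tested genes), and the median was -0.078. With the replicate block, 2 were higher and 6 lower (25.9% and 23.2% of all tested genes). VEGFA, an angiogenic factor that responds to many stresses, rose (3.42, SE 0.21, adjusted p 5.07e-04) and PDK4 fell (-2.77, SE 0.36, adjusted p 0.00307), as did UCP2 (-1.63, adjusted p 0.0352). The difference between the experiments passed as positive for 8 targets and as negative for 1 (19.4% and 20.9% of all tested genes). Its median was 0.62 against -0.033 over all genes. The lists serve as a description, and the medians were not tested. The 13 mRNAs encoded by mtDNA itself were not analysed here.

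**Figure D5:**
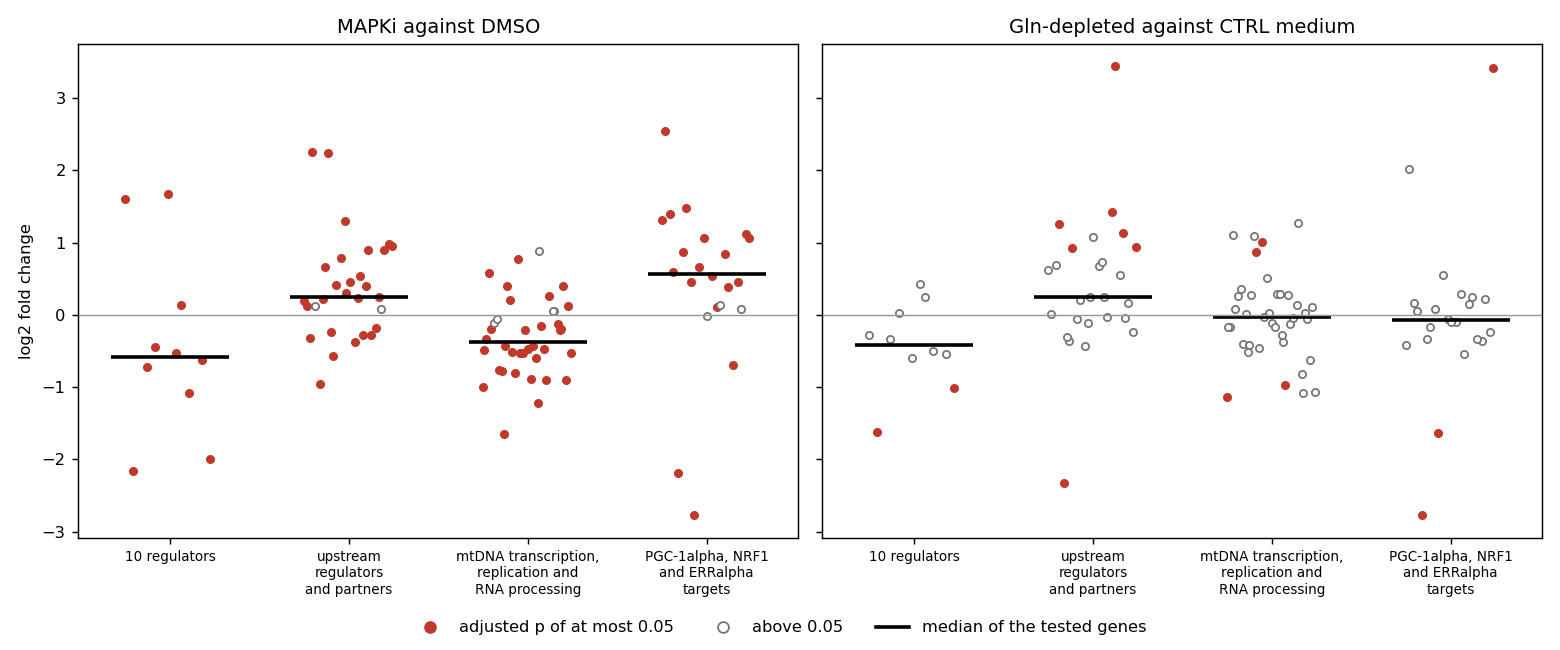
Log2 fold change (vertical axis) of each tested gene of the regulators and of the 3 lists, with MAPKi (left) and Gln depletion (right), filled where the adjusted p was at most 0.05, with a line at each median. With MAPKi the median is 0.57 for the targets and -0.38 for the mtDNA genes.

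The genes with a profile most like that of PPARGC1A were sought among 12290 protein-coding genes by the root mean square difference of log2 levels over the 12 libraries, each experiment being set to the mean of its control group. The closest were MCC (0.134), TMEM67 (0.140), which encodes a protein of the primary cilium, and CD47 (0.173), which encodes a cell surface signal against phagocytosis. Their log2 fold changes with MAPKi were 1.60, 1.61 and 1.76, against 1.67 for PPARGC1A. With Gln depletion they were -0.45, -0.73 and -0.34, against -0.60. The measure is a description over 12 libraries that share these 2 treatments.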

How the data were processed

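RNA-seq libraries were prepared after depletion of ribosomal RNA. The labels describe cytoplasmic RNA, while the RNA-seq methods of the study describe total RNA. Per the submitters' processing notes, reads were trimmed with fastp 0.20.1, aligned to GRCh38.p13 with HISAT2 2.2.1 and counted with HTSeq 0.13.5. The values that the authors deposited are raw counts per gene symbol in 1 table, without normalization, and every column of values was used.

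Symbols were matched to GENCODE v44 and RefSeq (36524 by symbol, 513 by synonym). Protein-coding genes with a mean TMM-normalized count of at least 10 were tested with edgeR 4.0.16 (R 4.3.3), separately for each experiment, by a robust quasi-likelihood fit with the treatment as sole factor. Genes were tested against no change and against a log2 fold change of 0.585, with Benjamini-Hochberg adjustment. DESeq2, the tool of the study, was run here in version 1.42.0 as an alternative. The SE is the log2 fold change divided by the square root of the F statistic. Summed over genes, pairs of libraries of a group differed by more than counting error. The chi-square per degree of freedom was 4.47 to 14.4 in the MAPKi experiment and 36.2 to 174 in the Gln experiment. Single regulators could spread as little as counting error or less, such as ESRRA in DMSO (3081 ± 26.2, SD, n = 3). Genes were not tested for this one by one.

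Deviations of libraries with the same replicate number from their group means correlated at 0.573, 0.427 and 0.378 in the Gln experiment, where the labels also give shared experimental batches, so that values with the replicate block are given there. Profiles were compared with a pseudocount of 0.5. Only the fit with the treatment as sole factor, tested against no change, was run on simulated counts, which held no pairing, batch or GC trend. The other fits and the 1.5-fold test were not simulated. Shares were compared in Python 3.11.15 (scipy 1.17.1).

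The regulators and lists were chosen with earlier results of these data known. All 10 regulators, MITF, the 3 genes most like PPARGC1A and, per list and experiment, up to 3 rises and 3 falls past an adjusted p of 0.05 with a mean count of at least 50 are named. Neighbours were named for shared exons, and marker and MAPK genes as checks.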

Additional observations from a re-analysis of the deposited data

How the results depend on the processing

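With MAPKi, 155 of 160 recomputed log2 fold changes of the regulators kept their direction and call, and 5 lost the call (GABPA 3 times, TFAM and POLRMT in the fit of all 12 libraries). With Gln depletion 148 of 180 kept both, 4 lost the call and 20 gained it. The number of regulators lower with Gln depletion (2) was 1 at an adjusted p of 0.01, 5 with the replicate block, with the block and GC correction, with experimental batch as a term or in batch 2 alone, 4 in the fit of all 12 libraries, and 1 to 4 without single libraries. The number higher (0) was 1 with the replicate block or the batch term. The number downregulated past 1.5-fold (1) was 0 at an adjusted p of 0.01, 2 with the replicate block alone or with GC correction, with the batch term, in batch 2 alone or in the fit of all 12 libraries, and 0 to 1 without single libraries.

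Without a call, TFAM changed sign with Gln depletion from 0.023 to -0.011 (fit of all 12 libraries), -0.24 (GC correction, with or without the replicate block), -0.15 (batch 2 alone), -0.11 and -0.011 (without Gln-depleted replicate 2 or 3) and -0.28 (without CTRL medium replicate 1), the highest value without 1 library being 0.21. GABPA ranged from -0.082 to 0.53 without single libraries, the lowest without CTRL medium replicate 1. The difference between the experiments changed sign for GABPA from -0.059 to 0.21 (GC correction, with or without the replicate block), 0.16 (without Gln-depleted replicate 2) and 0.25 (without CTRL medium replicate 1), and lay down to -0.35 without other single libraries. It changed sign for POLRMT from -0.038 to 0.15 (replicate block), 0.11 and 0.069 (without CTRL medium replicate 2 or 3) and 0.76 (without Gln-depleted replicate 1, where it was called), and lay down to -0.34 without CTRL medium replicate 1. The difference in the PPARGC1A share with Gln depletion, 2.78 points, lay between -1.64 and 7.86 without single libraries. The cause was not tested.

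Same-numbered MAPKi and DMSO libraries correlated at 0.0592 to 0.0651, below the limit of 0.1 set here for pairing. Each still matched its own number best, and the labels give such libraries a common number. Whether they were handled as pairs is not known. The replicate block changed no call of a regulator there, and gave 5091 genes higher and 5006 lower against 4920 and 4896. Over all genes with Gln depletion, the replicate block gave 3236 higher and 2898 lower against 1211 and 997, DESeq2 1745 and 1554, batch as a term 3018 and 2657, batch 2 alone 2269 and 2227, GC correction 1977 and 2033, both 2999 and 3217, the fit of all 12 libraries 2473 and 2697, and an adjusted p of 0.01 gave 394 and 199. With MAPKi, the fit of all 12 libraries gave 3096 and 3163 against 4920 and 4896. Of 204 recomputed list counts, 56 moved by over 1.5 times. GC correction of the difference, the canonical transcript length and the batch interaction were added after the data were seen. Shares of mtDNA-encoded mRNAs were not run.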
